A study of Saccharomyces cerevisiae S288C with 18 samples.

Results

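The 36 antioxidant and redox genes of Saccharomyces cerevisiae described here, of 6692 genes in the count tables, were chosen by name for the enzymes they encode: the catalases, superoxide dismutases, peroxiredoxins, thioredoxins, glutaredoxins, glutathione peroxidases, methionine sulfoxide reductases and old yellow enzymes with their partners, and the transcription factors YAP1 and SKN7. The rule itself uses no expression value, but the genes were chosen with earlier results of these data known. RNA-seq was performed on strain S288C in 18 cultures, in 6 groups of 3 biological replicates. Amphotericin B (AMB), a polyene antifungal that binds ergosterol in the fungal membrane, was given at 0.03 µg/mL for 60 minutes. The AMB-LF group received the same AMB concentration together with 2 µg/mL bovine lactoferrin (LF), an iron-binding milk glycoprotein, for 50 minutes, and the LF group received 2 µg/mL LF alone for 50 minutes. Each treatment had an untreated matched control, labelled with 60 minutes for AMB and with 50 minutes for AMB-LF and for LF. AMB, AMB-LF and their controls were sequenced on a HiSeq and LF and its control on a NextSeq, and the platforms were analysed apart. All values are from whole cultures of wild-type cells, where fewer cells expressing a gene and less RNA per cell cannot be told apart.

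Aerobic cells form superoxide and hydrogen peroxide as respiration proceeds. Superoxide dismutases turn superoxide into hydrogen peroxide, and catalases, peroxidases and peroxiredoxins then reduce the peroxide. Thioredoxins and glutaredoxins keep protein thiols reduced at the expense of NADPH, with thioredoxin reductase and glutathione reductase handing on the electrons. In yeast, Yap1 and Skn7 are the main activators of these genes under peroxide stress, and Msn2 and Msn4 act on many of them through stress response elements.

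The regulatory elements in front of the genes are shown first, as they are the known points of entry for these regulators. Each gene was searched from 250 bases before its start codon to 50 bases after it, on both strands, in RefSeq's R64 genome sequence. The Yap1 response element TTACTAA was in the window of 8 of the 36 genes and in 7.47% of the 5987 windows of all genes (in GRX8 the match lies inside the coding sequence). The stress response element AGGGG was in 16 of the 36 and in 21.7% of all windows. The variant TTAGTCA was in 3 of the 36 (TRR1, GPX1 and SRX1) and in 3.62% of all windows, the palindrome TTACGTAA in PRX1 and in 0.668%, and the Aft1 site TGCACCC, the Gcn4 site TGACTCA and the longer Zap1 site in none of the 36 and in 1.29%, 2.74% and 0.0835% of all windows. Elements of 6 genes that the results below turn on, and of the classical Yap1 targets TRX2 and GLR1, are printed 5′ to 3′ along the strand of the gene, with the element in capitals. TTAGTAA and CCCCT are the Yap1 and stress response elements read on the other strand.
TRX2, chrVII:913426-913455, minus strand, 217 bases upstream: tgtttatactcTTAGTAAaggatgctccct
TRX2, chrVII:913390-913419, minus strand, 181 bases upstream: tggctcttttcTTACTAAgcgcgttcagtt
GLR1, chrXVI:375300-375329, plus strand, 191 bases upstream: tttgacgtcacTTAGTAAgcacgacccttg
SOD1, chrX:623145-623174, minus strand, 149 bases upstream: gtgtgtcggaaTTAGTAAgcggacatccct
CTT1, chrVII:654489-654518, plus strand, 133 bases upstream: catttatcgtatCCCCTactgctacacgta
GRX1, chrIII:61340-61369, minus strand, 184 bases upstream: tgccttactaccCCCCTtgcgcctcctgat
AHP1, chrXII:368604-368633, plus strand, 165 bases upstream: aatgaaaaataaAGGGGtggaaaattaagg
PRX1, chrII:101269-101298, minus strand, 131 bases upstream: gagatttttaaTTACGTAAagaaacaaggg
PRX1, chrII:101255-101284, minus strand, 116 bases upstream: cgtaaagaaacaAGGGGccggatgttgctg
ZWF1, chrXIV:198038-198067, minus strand, 112 bases upstream: ggcttcctcctgCCCCTctctcccttttct
A match describes the sequence and is not evidence of a bound factor. The ZWF1 window held the stress response element 5 times, CTT1 and GRX1 held it once, and GRX4 and MXR1, which gave the largest increase and the largest decrease of the 35 tested genes in both treatments, held none of the elements searched.

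The HiSeq libraries held 6799569 to 9696467 counts and the NextSeq libraries 23925944 to 30172836. The 36 genes took 1.17% to 1.34% of the counts in the AMB, AMB-LF and control for AMB libraries, 1.51% to 1.78% in the control for AMB-LF, and 0.954% to 1.12% in the NextSeq libraries. The untreated HiSeq groups differed from each other in 31.8% of all genes tested. The growth protocol of the labels gives the durations of these untreated groups the other way round from the sample labels, and a plot of the libraries by the study names the groups the other way round, while the study's methods give each control the duration of its treatment, as the sample labels do. The sample labels were used, and values with the untreated groups exchanged or pooled are given beside results and with the choice of control. The labels place all 3 controls for AMB-LF on lane 1, which also holds AMB replicates 1 and 2 but just replicate 1 of AMB-LF and of the control for AMB, so lane was a term in the model. S288C is known as an alpha strain, but markers of mating type a were high (STE2 at 631 to 1049 counts per 1 M counts, CPM, over the 18 libraries) and those of alpha low (MFALPHA1 at 0.125 to 0.810, STE3 at 5.09 to 11.2 CPM). The summed level of the 5 a markers was 2629 to 2802 CPM in the control for AMB, 1808 to 1973 in the control for AMB-LF, 1896 to 2204 under AMB and 2045 to 2348 under AMB-LF. The part of that difference in the results was not tested.

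In the plot of log2 fold changes by gene, 17 of the 35 genes tested passed the test with AMB and 19 with AMB-LF, and GRX4 and MXR1 stood out in both. With AMB, 10 of the 35 genes tested increased and 7 decreased relative to the matched control, where 18.7% of all genes tested increased and 18.4% decreased. A gene was called when its adjusted p was under 0.05 in the quasi-likelihood test of edgeR, adjusted by Benjamini-Hochberg over all genes. With AMB-LF, 4 genes increased and 15 decreased, against 14.1% and 15.1% of all genes tested. The 15 decreases with AMB-LF were 6 with both untreated groups pooled, where 411 of 5456 genes decreased. The number was also 6 with the untreated groups exchanged, where 872 of 5456 genes decreased, against 825 with the matched control. The median log2 fold change of the 35 genes was 0.08 with AMB and -0.19 with AMB-LF, and that of all genes was -0.02 and -0.01. The shares of the 35 genes were 28.6% increased and 20.0% decreased with AMB, and 11.4% and 42.9% with AMB-LF. As the genes were chosen with earlier results known, a share above that of all genes is not evidence about them as a set. All libraries of the treated group lay above all of the control for 12 genes with AMB and 5 with AMB-LF (26.3% and 25% of all genes), and below for 8 and 19 (27.5% and 25.8%). OYE3 was not tested, as it passed the filter of 7 CPM in too few HiSeq libraries. The counts moved on leaving out some single libraries, for the 35 genes and for all genes. Without control for AMB replicate 1, 4 genes increased and 3 decreased with AMB (553 and 421 of all genes, against 1019 and 1005). Without control for AMB replicate 2, 4 decreased (689 of all genes). Without AMB-LF replicate 1, 1 increased and 6 decreased with AMB-LF (299 and 171 of all genes, against 770 and 825). Dropping control for AMB replicate 1 or AMB-LF replicate 1 leaves the rest of that group on lane 2 alone.

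**Figure D1:**
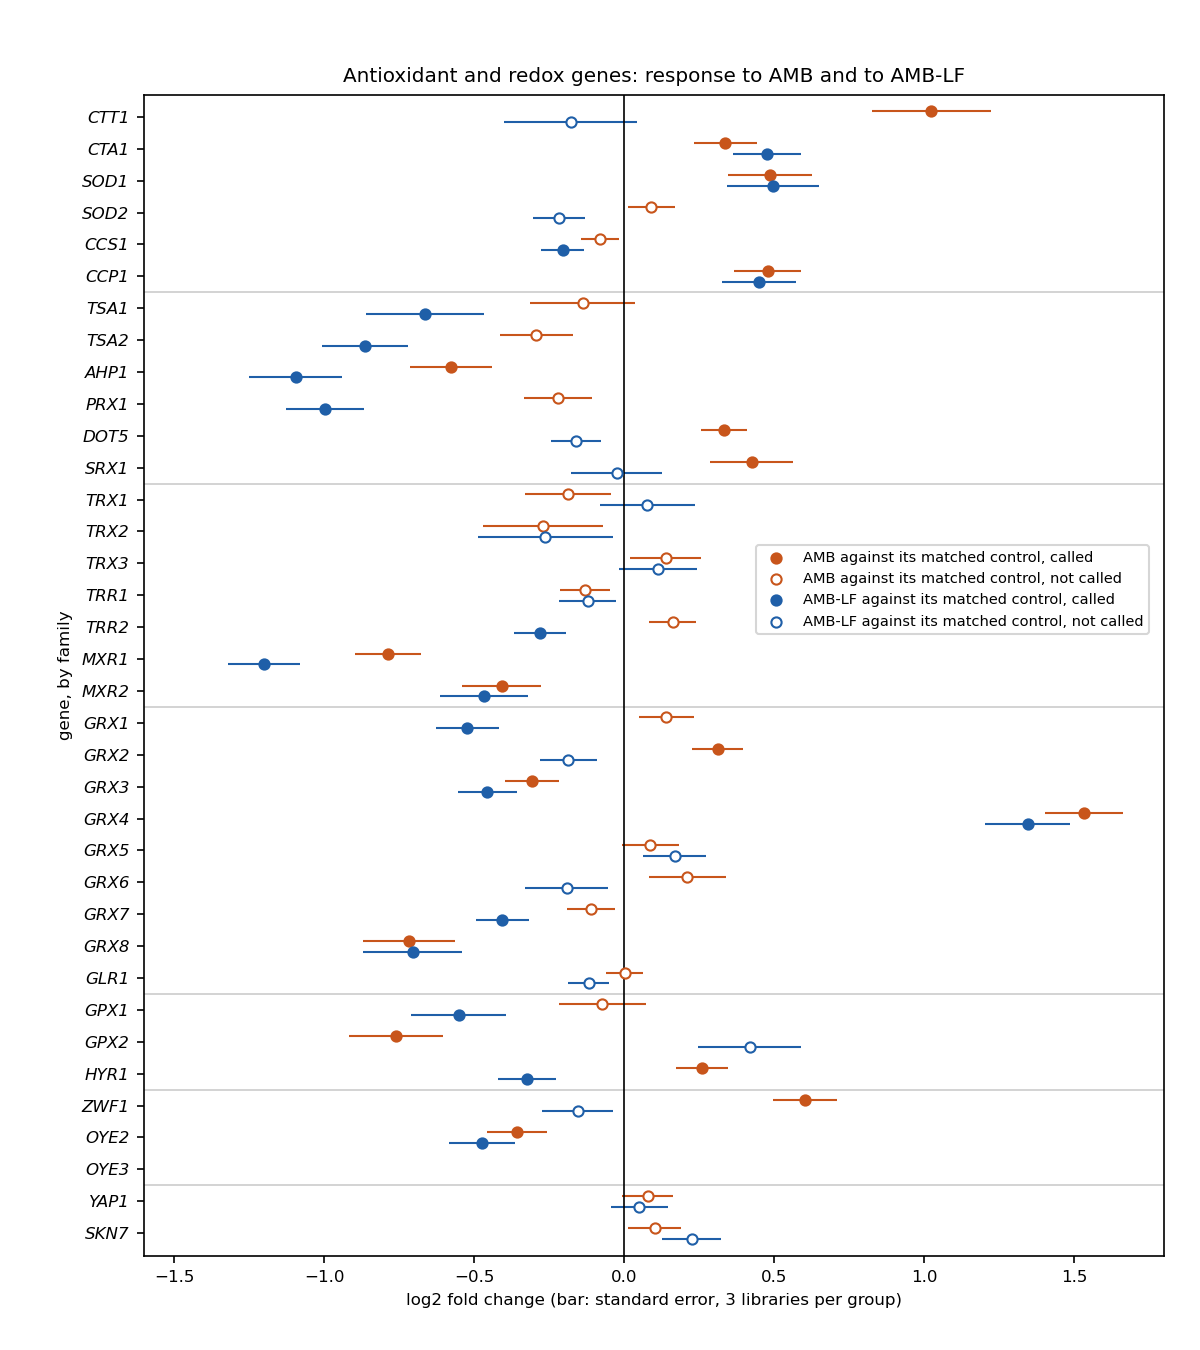
Log2 fold change (x axis) of each of the 36 genes (y axis, grouped by family) with AMB (orange) and AMB-LF (blue) against the matched control, with the standard error as a bar. Filled points passed an adjusted p of 0.05, OYE3 was not tested, and GRX4 stands farthest to the right at 1.53 and 1.35.

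Of the 35 genes, 4 increased in both treatments (CTA1, SOD1, CCP1 and GRX4) and 6 decreased in both (AHP1, MXR1, MXR2, GRX3, GRX8 and OYE2). HYR1 was called in opposite directions. Another 5 increased with AMB and were not called with AMB-LF (CTT1, DOT5, SRX1, GRX2 and ZWF1), GPX2 decreased with AMB alone, and 8 decreased with AMB-LF and were not called with AMB (CCS1, TSA1, TSA2, PRX1, TRR2, GRX1, GRX7 and GPX1). The other 10 were called in neither (SOD2, TRX1, TRX2, TRX3, TRR1, GRX5, GRX6, GLR1, YAP1 and SKN7). The AMB and AMB-LF comparisons share no library, but come from 1 fit and share its lane term and its estimate of the spread. The share of all genes called in both treatments was not counted, so these joint counts only describe the 35 genes.

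Of 6 genes for catalases, superoxide dismutases, the haem peroxidase CCP1 and the copper chaperone CCS1, 4 increased with AMB and none decreased, and with AMB-LF 3 increased and CCS1 decreased. Of all genes tested, 18.7% increased and 18.4% decreased with AMB, and 14.1% and 15.1% with AMB-LF. SOD1 (YJR104C, chromosome X from 622550 to 623014), which encodes the copper-zinc superoxide dismutase, was at 2294, 2643 and 2765 CPM in the AMB replicates and 1811, 1770.4 and 2027 in their controls (log2 fold change 0.49, standard error 0.14, adjusted p = 0.018). In the AMB-LF replicates it was at 2255, 2108 and 2543 CPM and in their controls at 1378, 1442 and 1867 (log2 fold change 0.50, standard error 0.15, adjusted p = 0.031). Every treated library was above every matched control in both treatments. CCP1 (YKR066C, chromosome XI from 566113 to 567198), the mitochondrial cytochrome c peroxidase, was at 357, 382 and 349.9 CPM with AMB and 257, 257 and 258 in the controls, so that the groups lay well apart (log2 fold change 0.48, standard error 0.11, adjusted p = 0.0069). Its values with AMB-LF were 341, 316 and 337 CPM, against 207, 298 and 238 in the controls, of which replicate 2 came nearest (log2 fold change 0.45, standard error 0.12, adjusted p = 0.018). The response to AMB-LF minus that to AMB was 0.01 ± 0.22, adjusted p = 0.98 for SOD1 (log2 ± standard error) and -0.03 ± 0.18, adjusted p = 0.94 for CCP1. The SOD1 call was lost with AMB on leaving out AMB replicates 2 and 3 and control for AMB replicates 1 and 2 (adjusted p = 0.054 to 0.1), and with AMB-LF on leaving out control for AMB replicate 1, AMB-LF replicates 1 and 3 and control for AMB-LF replicates 1 and 2 (adjusted p = 0.059 to 0.18). The CCP1 call was lost with AMB without control for AMB replicate 1 (adjusted p = 0.062), and with AMB-LF without AMB-LF replicate 1 (adjusted p = 0.11).

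CTT1 increased with AMB and not with AMB-LF, and CTA1, the other catalase, increased with both. CTT1 (YGR088W, chromosome VII from 654634 to 656322), the cytosolic catalase T, was at 594, 642 and 567 CPM with AMB and 319, 266 and 292 in the controls, an increase that was called in all 12 fits that left out 1 library (log2 fold change 1.02, standard error 0.20, adjusted p = 0.0024). With AMB-LF it was at 363, 455 and 365 CPM, inside the range of its controls at 402, 630.2 and 339 (log2 fold change -0.18, standard error 0.22, adjusted p = 0.58). Control for AMB-LF replicate 2 was the highest untreated library for CTT1 and as high as the AMB libraries. The increase with AMB was 0.41 (adjusted p = 0.12) when the untreated groups were exchanged. CTA1 (YDR256C, chromosome IV from 968133 to 969680), catalase A of peroxisomes and mitochondria, was far lower, at 44.5, 36.6 and 36.8 CPM with AMB and 28.97, 33.3 and 30.1 in the controls (log2 fold change 0.34, standard error 0.11, adjusted p = 0.026). With AMB-LF CTA1 was at 39.6, 34.6 and 41.04 CPM and at 29.2, 27.7 and 27.1 in the controls, again without overlap (log2 fold change 0.48, standard error 0.11, adjusted p = 0.0097). Its AMB call was lost without AMB replicate 1 and control for AMB replicates 1 and 3 (adjusted p = 0.055 to 0.22), and its AMB-LF call without AMB-LF replicate 1 (adjusted p = 0.094). Per kilobase of coding sequence, CTT1 stood at 8.77 ± 1.39 times the level of CTA1 in the control for AMB and 14.2 ± 1.92 times with AMB, and at 14.97 ± 5.14 times in the control for AMB-LF and 9.53 ± 2.18 times with AMB-LF (mean ± SD, n = 3).

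SOD2, the manganese superoxide dismutase of mitochondria, was not called (0.09 with AMB and -0.22 with AMB-LF on the log2 scale). CCS1, the copper chaperone of Sod1, was at 158, 178 and 176 CPM with AMB-LF and 181, 198 and 197 in the controls, a difference at the edge of the threshold (log2 fold change -0.20, standard error 0.07, adjusted p = 0.049). That call was lost in 10 of the 12 fits without 1 library, namely without AMB replicates 1 and 2, control for AMB replicates 1 and 2, AMB-LF replicates 1, 2 and 3 and control for AMB-LF replicates 1, 2 and 3 (adjusted p = 0.058 to 0.63). With AMB the log2 fold change of CCS1 was -0.08 (adjusted p = 0.34).

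Peroxiredoxins reduce peroxides through a reactive cysteine. Of 6 genes including sulfiredoxin, 4 decreased and none increased with AMB-LF (15.1% and 14.1% of all genes), with a median log2 fold change of -0.76. With AMB 2 increased and 1 decreased (18.7% and 18.4% of all genes). AHP1 (YLR109W, chromosome XII from 368781 to 369311), a thiol peroxidase that prefers alkyl hydroperoxides, was at 1500.2, 1575 and 1538 CPM with AMB and 2116, 2345 and 2908 in the controls (log2 fold change -0.58, standard error 0.14, adjusted p = 0.0073). In the AMB-LF libraries it stood at 1272, 1562 and 1947 CPM against 2929, 3002 and 3041 (log2 fold change -1.09, standard error 0.16, adjusted p = 0.00039). All treated libraries were below all their controls. The AMB call was lost without AMB replicate 3 (adjusted p = 0.078) and the AMB-LF call held whichever of the 12 libraries was left out. PRX1 (YBL064C, chromosome II from 100371 to 101156), the mitochondrial peroxiredoxin whose Yap palindrome and stress response element are printed above, was at 142, 152 and 184 CPM with AMB-LF and 317, 339 and 294 in the controls (log2 fold change -0.998, standard error 0.13, adjusted p = 0.00019). With AMB it was at 176, 212 and 183 CPM and 236, 202 and 228 in the controls, which overlap (log2 fold change -0.22, standard error 0.11, adjusted p = 0.15). The PRX1 decrease with AMB-LF was called without any 1 library and with the untreated groups exchanged (-0.48, adjusted p = 0.0065), where PRX1 also decreased with AMB (-0.74, adjusted p = 0.00051).

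TSA1 and TSA2 encode closely related cytosolic peroxiredoxins, of which TSA1 is the abundant one and TSA2 the one known to be induced by stress. TSA2 (YDR453C, chromosome IV from 1365072 to 1365662) was at 23.7, 22.7 and 22.2 CPM with AMB-LF and 52.6, 41.8 and 41.3 in the controls (log2 fold change -0.86, standard error 0.14, adjusted p = 0.0011). Under AMB the values were 36.6, 41.8 and 39.9 CPM, which overlapped its controls at 57.01, 42.7 and 40.5 (log2 fold change -0.29, standard error 0.12, adjusted p = 0.083). The 3 AMB-LF libraries were thus the lowest of the 12 for TSA2. TSA1 (YML028W, chromosome XIII from 220138 to 220728) was at 2022, 2141 and 2431 CPM with AMB-LF, and its controls at 2675, 4481 and 3191 were spread by a high replicate 2 (log2 fold change -0.66, standard error 0.20, adjusted p = 0.026). With AMB TSA1 was at 2216, 2285 and 2014 CPM against 2358, 2311 and 2527 (log2 fold change -0.14, standard error 0.18, adjusted p = 0.57). The TSA1 call with AMB-LF was lost without control for AMB replicate 1 and AMB-LF replicates 1 and 2 (adjusted p = 0.056 to 0.27), and the TSA2 call held in each such fit. With the untreated groups pooled, TSA1 was at a log2 fold change of -0.33 with AMB-LF (adjusted p = 0.33), and with them exchanged at -0.13 (adjusted p = 0.6), where it decreased with AMB instead (-0.67, adjusted p = 0.011). No stretch of 100 bases of either gene occurs elsewhere in the genome. Per kilobase, TSA1 stood at 96.4 ± 12.3 times TSA2 with AMB-LF and at 78.4 ± 28.1 times in the controls (mean ± SD, n = 3).

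DOT5 and SRX1 were the members of this family that rose with AMB. DOT5 (YIL010W, chromosome IX from 334882 to 335529), a nuclear thiol peroxidase, was at 120.0, 119 and 122 CPM with AMB and 93.5, 94.6 and 107 in the controls (log2 fold change 0.33, standard error 0.08, adjusted p = 0.0058). Under AMB-LF the values were 101, 113 and 126 CPM, and its controls were at 126, 117 and 115 (log2 fold change -0.16, standard error 0.08, adjusted p = 0.17). The controls for AMB-LF thus lay around the level of the AMB libraries. SRX1, the sulfiredoxin that restores overoxidised peroxiredoxins, was low, at 10.7, 11.9 and 11.5 CPM with AMB and 8.64, 9.18 and 7.79 in the controls (log2 fold change 0.43, standard error 0.14, adjusted p = 0.032). The SRX1 call was lost without AMB replicates 2 and 3 and control for AMB replicates 1 and 3 (adjusted p = 0.081 to 0.11), and its log2 fold change with AMB-LF was -0.02 (adjusted p = 0.92). Neither DESeq2 nor either other choice of control called SRX1, and with the untreated groups exchanged the log2 fold change of DOT5 with AMB was -0.03 (adjusted p = 0.75).

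**Figure D2:**
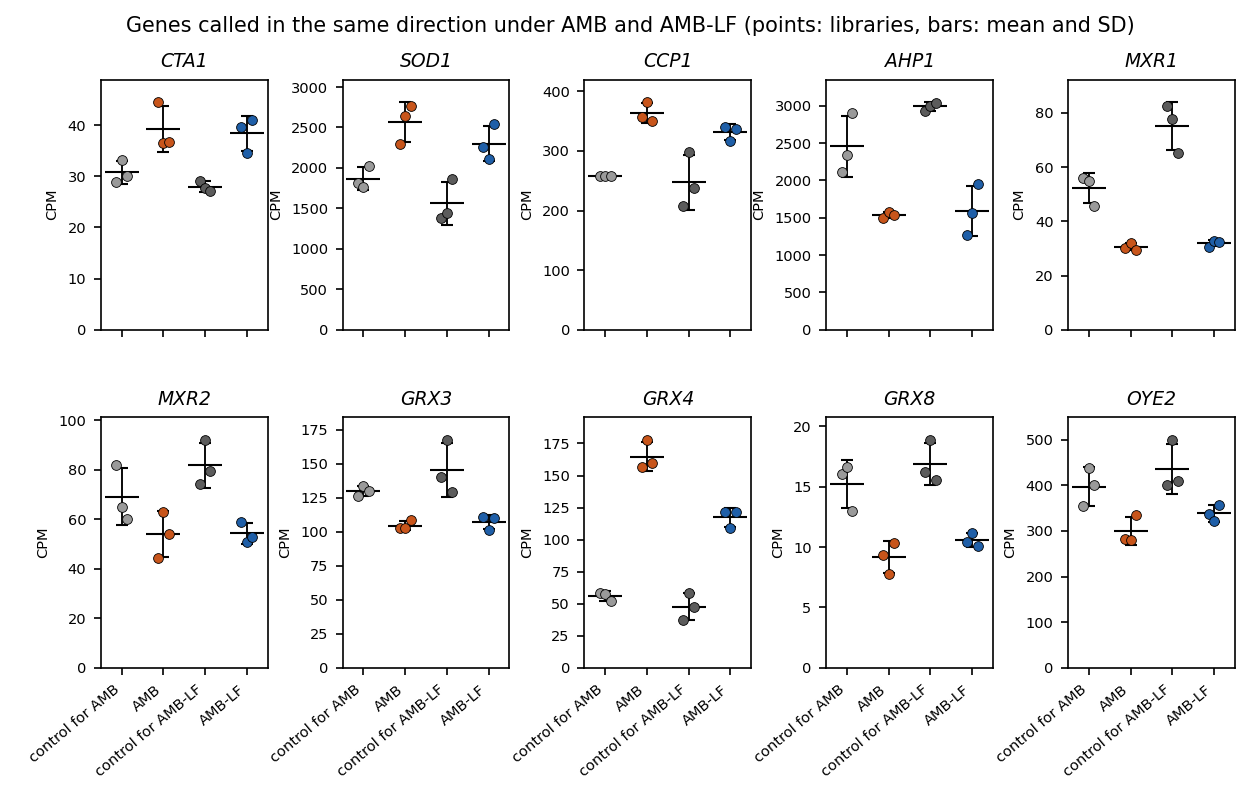
CPM (y axis, linear from 0) of the 10 genes called in the same direction with AMB and AMB-LF, in the 3 libraries of each of 4 HiSeq groups (x axis), with the mean and SD as a bar. For GRX4 the treated libraries lie from 109 to 178 CPM and the untreated ones from 37.5 to 58.5.

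Of 7 genes of the thioredoxin system and the methionine sulfoxide reductases, none increased. With AMB 2 decreased and with AMB-LF 3 (18.4% and 15.1% of all genes tested). These were MXR1 and MXR2 in both treatments, and TRR2 with AMB-LF. The thioredoxins TRX1, TRX2 and TRX3 and the cytosolic thioredoxin reductase TRR1 were called in neither treatment, with log2 fold changes from -0.27 (TRX2) to 0.14 (TRX3) with AMB and from -0.26 (TRX2) to 0.11 (TRX3) with AMB-LF. TRX2, whose paired Yap1 response elements are printed above, was at 650.1, 739 and 646 CPM with AMB and 1017, 622 and 679 in the controls. With AMB-LF TRX2 was at 762, 584 and 704 CPM and at 694, 1287 and 879 in the controls. Single untreated libraries (control for AMB replicate 1 and control for AMB-LF replicate 2) were the highest for TRX2 of all 12. TRR2 (YHR106W, chromosome VIII from 325598 to 326626), the mitochondrial thioredoxin reductase, was at 56.98, 62.3 and 58.2 CPM with AMB-LF and 71.9, 78.3 and 66.8 in the controls (log2 fold change -0.28, standard error 0.09, adjusted p = 0.032). With AMB it was at 72.8, 68.7 and 67.8 CPM and at 63.8, 63.3 and 59.2 in the controls (log2 fold change 0.16, standard error 0.08, adjusted p = 0.13). The treated libraries were therefore all above their controls with AMB and all below with AMB-LF. TRR1, its cytosolic counterpart, was at 470.4, 499 and 473 CPM with AMB, 529.9, 496 and 556 in the controls, 461, 448 and 516 with AMB-LF and 499.8, 497 and 549 in the controls for AMB-LF, with overlap in both comparisons. The TRR2 call was lost without AMB-LF replicates 1 and 3 and control for AMB-LF replicates 1 and 2 (adjusted p = 0.058 to 0.42).

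The methionine sulfoxide reductases, which repair oxidised methionine, fell in both treatments. MXR1 (YER042W, chromosome V from 234937 to 235491) was at 30.3, 32.2 and 29.5 CPM with AMB and 56.1, 54.9 and 45.8 in the controls (log2 fold change -0.79, standard error 0.11, adjusted p = 0.0003). After AMB-LF it was at 30.6, 32.7 and 32.4 CPM and 82.3, 77.6 and 65.3 in the controls (log2 fold change -1.20, standard error 0.12, adjusted p = 2.9e-05). All 6 treated libraries lay below all 6 untreated ones, the 2 treated groups were at nearly one level (30.7 ± 1.38 and 31.9 ± 1.14 CPM, SD, n = 3), and both calls held in each fit without 1 library. MXR2 (YCL033C, chromosome III from 62776 to 63282), the mitochondrial enzyme, was at 44.5, 63.03 and 54.1 CPM with AMB and 81.99, 64.8 and 60.2 in the controls, with overlap (log2 fold change -0.41, standard error 0.13, adjusted p = 0.031). With AMB-LF MXR2 was at 58.95, 50.8 and 52.96 CPM and 74.03, 91.9 and 79.5 in the controls, without overlap (log2 fold change -0.47, standard error 0.15, adjusted p = 0.033). MXR2 was no longer called with AMB without AMB replicate 1, control for AMB replicates 1 and 2 and AMB-LF replicate 1 (adjusted p = 0.054 to 0.27), or with AMB-LF without AMB replicate 3, AMB-LF replicates 1, 2 and 3 and control for AMB-LF replicate 2 (adjusted p = 0.052 to 0.23).

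The glutaredoxins held the largest change among the 36 genes. GRX3 and GRX4 encode closely related monothiol glutaredoxins that bind iron-sulfur clusters and restrain the iron regulator Aft1, and they moved in opposite directions in both treatments. GRX4 (YER174C, chromosome V from 538434 to 539168) was at 156, 178 and 160.0 CPM with AMB and 58.2, 57.96 and 51.8 in the controls (log2 fold change 1.53, standard error 0.13, adjusted p = 6.6e-06). With AMB-LF it was at 121, 109 and 122 CPM and 37.5, 58.5 and 47.4 in the controls (log2 fold change 1.35, standard error 0.14, adjusted p = 4.2e-05). No treated library came near an untreated one. GRX3 (YDR098C, chromosome IV from 644178 to 644930) was at 103, 103 and 109 CPM with AMB and 127, 134 and 130.3 in the controls (log2 fold change -0.31, standard error 0.09, adjusted p = 0.019). In the AMB-LF libraries it stood at 111, 101 and 110.2 CPM and 140.3, 167 and 129 in the controls (log2 fold change -0.46, standard error 0.10, adjusted p = 0.006). Per kilobase of coding sequence GRX3 stood at 2.28 ± 0.168 times GRX4 in the control for AMB and at 3.04 ± 0.541 times in the control for AMB-LF, but at 0.622 ± 0.0509 times with AMB and 0.893 ± 0.0119 times with AMB-LF (mean ± SD, n = 3), so that GRX4 was the more abundant of the pair per kilobase in both treated groups. With LF alone the ratio was 2.54 ± 0.599, and 2.52 ± 0.512 in its control. Those libraries differ in kit and platform, so their ratios were not compared with the HiSeq ones. The GRX4 calls held without any 1 library and under each choice of control (1.53 to 1.81 with AMB and 1.07 to 1.35 with AMB-LF). The GRX3 call with AMB was lost without AMB replicates 2 and 3 and control for AMB replicates 1 and 2 (adjusted p = 0.05 to 0.076), and that with AMB-LF held in each such fit.

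GRX8 (YLR364W, chromosome XII from 854062 to 854391), a cytosolic glutaredoxin of low activity, fell in both treatments. It was at 9.35, 7.78 and 10.4 CPM with AMB and 16.1, 16.6 and 12.97 in the controls (log2 fold change -0.72, standard error 0.15, adjusted p = 0.0043), and at 10.4, 11.2 and 10.1 with AMB-LF and 16.2, 18.9 and 15.6 in the controls (log2 fold change -0.70, standard error 0.16, adjusted p = 0.0085). All treated libraries were below all untreated ones. The difference between the responses was 0.01 ± 0.24, adjusted p = 0.98 (log2 ± standard error). The calls were lost without control for AMB replicate 1 (adjusted p = 0.057) for AMB and without AMB-LF replicate 1 (adjusted p = 0.11) for AMB-LF. GRX1 and GRX2 encode the dithiol glutaredoxins, the bulk of the classical activity. GRX2 (YDR513W, chromosome IV from 1471017 to 1471448) was at 229, 226 and 216 CPM with AMB and 186, 159.9 and 191 in the controls (log2 fold change 0.31, standard error 0.09, adjusted p = 0.014), and at 194, 198 and 218 with AMB-LF and 224, 251 and 224 in the controls (log2 fold change -0.19, standard error 0.10, adjusted p = 0.16). GRX1 (YCL035C, chromosome III from 60841 to 61173) was at 323, 332 and 322 CPM with AMB and 297, 291 and 316 in the controls (log2 fold change 0.14, standard error 0.09, adjusted p = 0.25), and at 254, 287 and 317 with AMB-LF and 439.7, 379 and 365 in the controls (log2 fold change -0.52, standard error 0.10, adjusted p = 0.0037). For both genes the treated libraries were all above the controls with AMB and all below them with AMB-LF. The GRX2 call with AMB was lost without control for AMB replicate 1 (adjusted p = 0.052), and the GRX1 call with AMB-LF without AMB-LF replicate 1 (adjusted p = 0.12). The GRX1 value with AMB-LF was -0.25 (adjusted p = 0.26) with the untreated groups pooled and -0.08 (adjusted p = 0.54) with them exchanged. The coding sequence of GRX2 overlaps that of EMI1 by 47 bases on the opposite strand, and that of GRX6 overlaps YDL009C by 101 bases.

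GRX7 (YBR014C, chromosome II from 266725 to 267336), a glutaredoxin of the secretory pathway, was at 129, 134 and 134 CPM with AMB-LF and 170.0, 192 and 162 in the controls (log2 fold change -0.41, standard error 0.09, adjusted p = 0.0064). Under AMB the values were 129, 140.3 and 146 CPM and 159.6, 140.5 and 148 in the controls, which overlap (log2 fold change -0.11, standard error 0.08, adjusted p = 0.3). The call was lost without AMB-LF replicate 1 (adjusted p = 0.13). Its partner in that compartment, GRX6, stood lower, at 20.3 CPM per kilobase with AMB where GRX7 stood at 226, and was called in neither treatment (0.21 with AMB and -0.19 with AMB-LF). GRX6 was at 13.1, 14.3 and 15.00 CPM with AMB, 12.2, 12.7 and 13.2 in the controls, 13.3, 16.9 and 15.4 with AMB-LF and 17.4, 17.2 and 13.7 in the controls for AMB-LF. The mitochondrial glutaredoxin GRX5 (0.09 and 0.17) and the glutathione reductase GLR1 (0.00 and -0.12) were not called either. GLR1 kept to a narrow range, at 217, 221 and 204 CPM with AMB, 203, 216 and 219 in its controls, 211, 202 and 209 with AMB-LF and 232, 228 and 219.5 in the controls for AMB-LF.

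The glutathione peroxidase family moved in different directions. HYR1 (YIR037W, chromosome IX from 423128 to 423619), the peroxidase that senses hydrogen peroxide for Yap1, was at 251, 282 and 255 CPM with AMB and 224, 206 and 234 in the controls (log2 fold change 0.26, standard error 0.09, adjusted p = 0.034). Under AMB-LF the values were 224, 247 and 267 CPM and 316, 301 and 289.9 in the controls (log2 fold change -0.32, standard error 0.10, adjusted p = 0.026). Neither pair of groups overlapped, and the 2 treated groups themselves lay within 224 to 282 CPM. GPX2 (YBR244W, chromosome II from 707528 to 708016) was at 125, 153 and 129.8 CPM with AMB and 259.9, 190.3 and 189.7 in the controls (log2 fold change -0.76, standard error 0.16, adjusted p = 0.0035). After AMB-LF it was at 217, 124 and 157 CPM and 113, 161 and 165 in the controls, which overlap (log2 fold change 0.42, standard error 0.17, adjusted p = 0.087). The untreated group for AMB was itself the higher of the untreated groups in GPX2. GPX1 (YKL026C, chromosome XI from 389380 to 389883) was at 20.3, 22.1 and 20.2 CPM with AMB-LF and 32.02, 35.9 and 23.9 in the controls (log2 fold change -0.55, standard error 0.16, adjusted p = 0.022), and at 23.2, 21.3 and 24.3 with AMB and 26.04, 22.96 and 23.5 in the controls (log2 fold change -0.07, standard error 0.14, adjusted p = 0.72). The HYR1 call was lost with AMB without AMB replicate 2 and control for AMB replicates 1 and 2 (adjusted p = 0.093 to 0.1) and with AMB-LF without AMB-LF replicates 1 and 2 and control for AMB-LF replicate 1 (adjusted p = 0.052 to 0.45), and the GPX1 call without AMB-LF replicate 1 and control for AMB-LF replicates 1 and 2 (adjusted p = 0.052 to 0.23). With the untreated groups exchanged, the log2 fold change of HYR1 was -0.22 with AMB (adjusted p = 0.069) and 0.15 with AMB-LF (adjusted p = 0.18), and that of GPX2 0.03 (adjusted p = 0.9) and -0.37 (adjusted p = 0.082).

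Among the enzymes of NADPH, ZWF1 (YNL241C, chromosome XIV from 196426 to 197943) encodes glucose 6-phosphate dehydrogenase, the entry to the pentose phosphate pathway. It was at 616, 688 and 554 CPM with AMB and 397, 389 and 448 in the controls (log2 fold change 0.60, standard error 0.11, adjusted p = 0.0014). With AMB-LF it was at 477, 549.6 and 582 CPM and 588, 589 and 589 in the controls (log2 fold change -0.15, standard error 0.12, adjusted p = 0.35). The AMB libraries were clear of their controls, while the controls for AMB-LF were as high as the AMB libraries. The increase with AMB held without any 1 library, and was 0.07 (adjusted p = 0.65) with the untreated groups exchanged. OYE2 (YHR179W, chromosome VIII from 462502 to 463704), an NADPH oxidoreductase of the old yellow enzyme type, was at 283, 279 and 334 CPM with AMB and 354, 437 and 401 in the controls (log2 fold change -0.36, standard error 0.10, adjusted p = 0.017). In the AMB-LF libraries it stood at 338, 321 and 358 CPM and 401, 499 and 409 in the controls (log2 fold change -0.47, standard error 0.11, adjusted p = 0.0083). The AMB call of OYE2 was lost without control for AMB replicates 1 and 2 (adjusted p = 0.054). Its paralog OYE3 was at 5.36 to 13.5 CPM over the 12 libraries, with 8.06, 13.5 and 9.72 in the controls for AMB-LF and 8.45, 6.37 and 5.82 with AMB-LF, and was not tested.

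The transcription factors themselves were not called. The log2 fold change of YAP1 was 0.08 ± 0.09, adjusted p = 0.5 with AMB and 0.05 ± 0.10, adjusted p = 0.72 with AMB-LF (± standard error). That of SKN7 was 0.10 ± 0.09, adjusted p = 0.39 with AMB and 0.23 ± 0.10, adjusted p = 0.11 with AMB-LF. Transcript levels do not report the nuclear location of Yap1, through which it is known to be switched on. The genes with a Yap1 response element upstream comprised 2 of the 10 genes that increased with AMB (SOD1 and GRX2), none of the 7 that decreased and 4 of the 18 not called (CCS1, TRX2, GLR1 and SKN7). With AMB-LF they were 1 of 4 increased (SOD1), 1 of 15 decreased (CCS1) and 4 of 16 not called. Those with a stress response element were 5 of 10 increased, 2 of 7 decreased and 9 of 18 not called with AMB, and 2 of 4, 7 of 15 and 7 of 16 with AMB-LF.

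**Figure D3:**
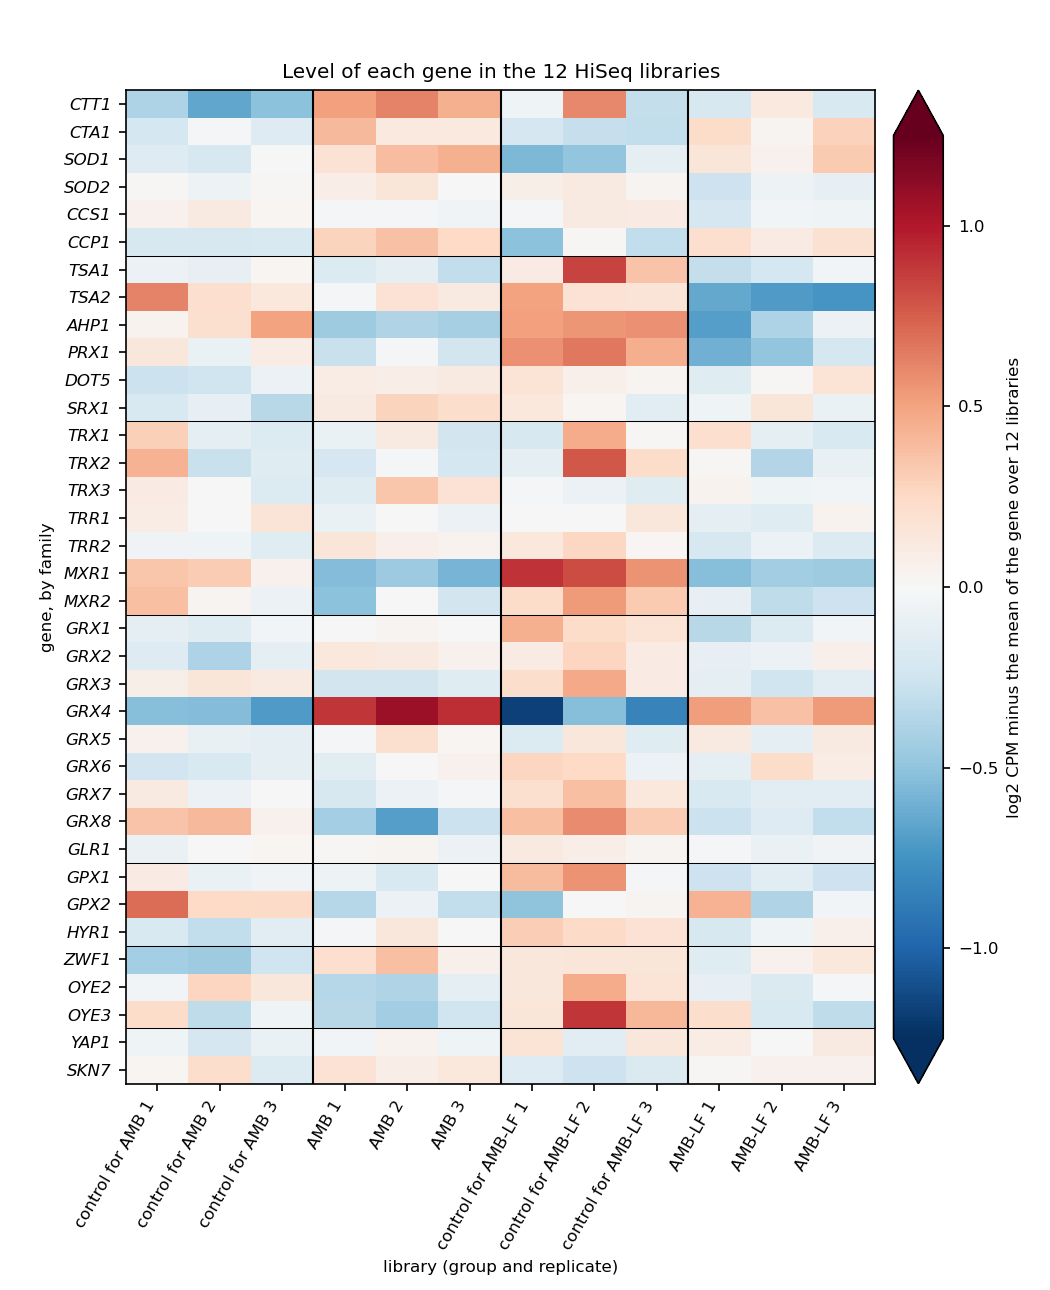
Log2 CPM of the 36 genes (rows, by family) in the 12 HiSeq libraries (columns), each minus the mean of its gene, from blue (lower) to red (higher). GRX4 was high in the 6 treated libraries, MXR1 low in them, and control for AMB-LF replicate 2 stood out in TSA1 (4481 CPM) and TRX2 (1287 CPM).

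Whether the response to AMB-LF differed from that to AMB was tested as the difference between the log2 fold changes. It was called for 9 of the 35 genes, where GPX2 responded more positively to AMB-LF and 8 genes more negatively, against 10.1% and 7.46% of all genes tested. The differences were 1.18 for GPX2, -1.20 for CTT1, -0.78 for PRX1, -0.76 for ZWF1 and -0.66 for GRX1. They were -0.58 for HYR1, -0.50 for GRX2, -0.49 for DOT5 and -0.44 for TRR2. The adjusted p of these 9 ranged from 0.019 for GPX2 to 0.034 for TRR2. These comparisons share all 12 libraries with the direct ones that follow. The difference is made of those 2 direct comparisons, so genes picked by it are not a separate test of either. Between AMB-LF and AMB, none of the 9 was called, with log2 fold changes from -0.59 (CTT1) to 0.39 (GPX2). Between the control for AMB-LF and the control for AMB, 7 of the 9 were called, with log2 fold changes from -0.79 (GPX2) to 0.54 (ZWF1), and CTT1 (0.61 ± 0.22, adjusted p = 0.051) and TRR2 (0.21 ± 0.09, adjusted p = 0.086) were not. None of the 9 differences was called without control for AMB replicate 1 or without AMB-LF replicate 1. In these fits edgeR called 0 of all genes tested for the difference, with 1228 and 1027 at an unadjusted p under 0.05. Both libraries were on lane 1 and the other replicates of their groups on lane 2, so these fits lean more on the lane term. Without control for AMB replicate 1 the differences ran from -1.35 (CTT1) to 1.12 (GPX2). They were smaller in size than with all libraries for GPX2 and ZWF1 and larger for the other genes. Without AMB-LF replicate 1 they ran from -0.96 (CTT1) to 0.97 (GPX2), all smaller in size. The part of lane in the lost calls was not tested. The called decreases in the difference numbered 5 without AMB replicate 3 or without control for AMB-LF replicate 1 (292 and 213 of all genes, against 407). The called increases numbered 2 without control for AMB-LF replicate 2 (533 of all genes, against 550).

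**Figure D4:**
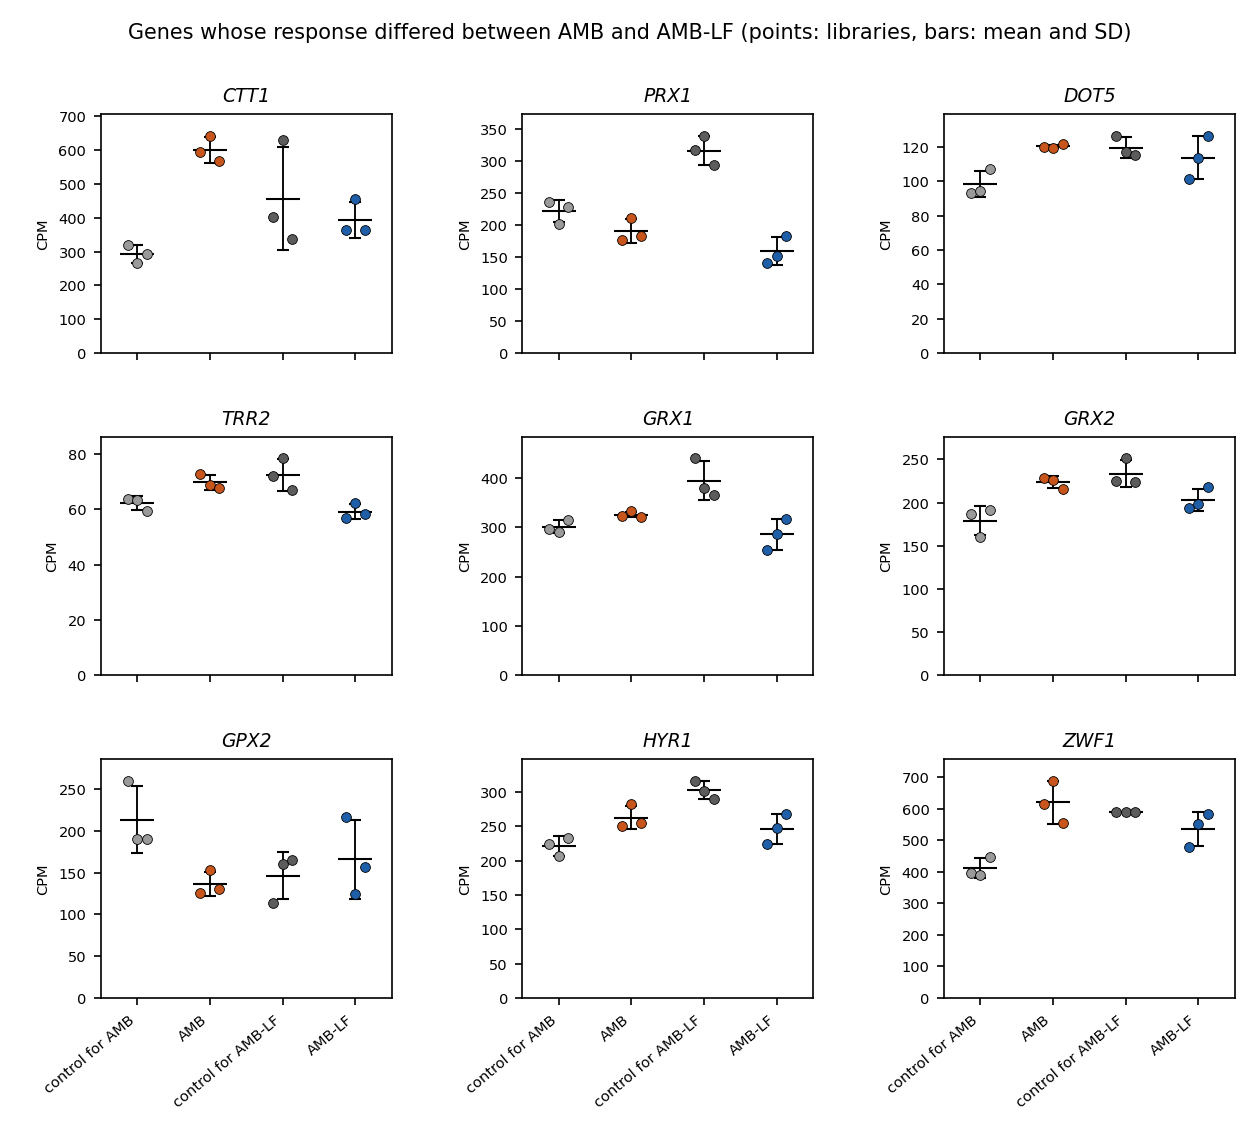
CPM (y axis, linear from 0) of the 9 genes whose response differed between AMB and AMB-LF, in the 3 libraries of each HiSeq group (x axis), with the mean and SD as a bar. For ZWF1 the controls for AMB-LF lie at 588 to 589 CPM and those for AMB at 389 to 448.

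Over all 35 genes, 9 were higher and 1 lower in the untreated group for AMB-LF than in that for AMB, against 15.2% and 16.6% of all genes tested. All controls for AMB-LF lay above all controls for AMB for 15 genes and below for 1 (27.2% and 22.8% of all genes). The 9 were AHP1, MXR1, GRX6 and 6 of the genes above (PRX1, DOT5, GRX1, GRX2, HYR1 and ZWF1), and the lower one was GPX2. The untreated groups differed in labelled time and in lane, and time and lane cannot be fully told apart, since the control for AMB-LF was on lane 1 alone. Dropping control for AMB replicate 1 leaves these groups no shared lane. The counts between them were then 3 and 0 (173 and 404 of all genes, against 828 and 906). Those without replicate 3 of the control for AMB-LF were 14 and 2 (838 and 947 of all genes). There were 2 decreases without control for AMB replicate 3 (919 of all genes) and 3 without control for AMB-LF replicate 2 (922 of all genes). Between the treated groups, AMB-LF against AMB, TSA2 decreased and no gene increased, against 0.312% and 0.0183% of all genes tested. For TSA2 this was -0.73 ± 0.13, adjusted p = 0.043 (log2 ± standard error), with the AMB-LF libraries all below the AMB libraries. All AMB-LF libraries lay above all AMB libraries for 0 genes and below for 8, against 6.2% and 9.62% of all genes. An unadjusted p under 0.05 was found for 8 of the 35 genes and 386 of all genes tested. The TSA2 call was lost without AMB replicates 1, 2 and 3, control for AMB replicate 2 and AMB-LF replicates 1, 2 and 3 (adjusted p = 0.066 to 0.76), and with scaling by library size alone or in the lane 1 libraries alone. GRX4 was also lower in all 3 AMB-LF libraries than in all 3 AMB libraries (-0.46 ± 0.12, adjusted p = 0.22), and was called when these 6 libraries were fitted alone.

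Because the untreated groups differed, each treated group was compared in addition with both untreated groups pooled and with the other untreated group, as shown in the plot of 3 control choices. Under all 3 choices, CTA1, SOD1, CCP1 and GRX4 increased with AMB and AHP1, MXR1, MXR2, GRX3, GRX8 and OYE2 decreased, which is 4 and 6 of 35 genes against 9.31% and 6.45% of all genes tested. With AMB-LF, CTA1, CCP1 and GRX4 increased and AHP1, PRX1, TSA2, MXR1, GRX3 and GRX8 decreased under all 3, which is 3 and 6 of 35 against 7.18% and 5.19%. SOD1 kept its sign with AMB-LF at 0.37 pooled (adjusted p = 0.09) and 0.30 exchanged (adjusted p = 0.11). Of the other genes called with AMB-LF, the log2 fold change with the untreated groups pooled and with them exchanged was -0.15 and -0.07 for TRR2, -0.26 and -0.18 for GRX7, -0.34 and -0.21 for GPX1, -0.39 and -0.34 for MXR2, -0.32 and -0.22 for OYE2, -0.18 and -0.16 for CCS1 and -0.03 and 0.15 for HYR1, with none of these called by either choice. With AMB, the pooled and exchanged values of the genes that lost their call under 1 or both choices were 0.70 and 0.41 for CTT1, 0.14 and -0.03 for DOT5, 0.30 and 0.19 for SRX1, 0.12 and -0.06 for GRX2, 0.31 and 0.07 for ZWF1, -0.41 and 0.03 for GPX2 and 0.01 and -0.22 for HYR1, of which just CTT1 was called, when pooled (adjusted p = 0.035). Exchanging the groups also gave calls that the matched controls did not. With AMB these were decreases of TSA1, PRX1, GRX1 (-0.30), GRX7 (-0.34) and GPX1 (-0.41) and an increase of SKN7 (0.32), and with AMB-LF increases of DOT5 (0.21) and ZWF1 (0.38). PRX1 was also called with AMB when the groups were pooled (-0.49).

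**Figure D5:**
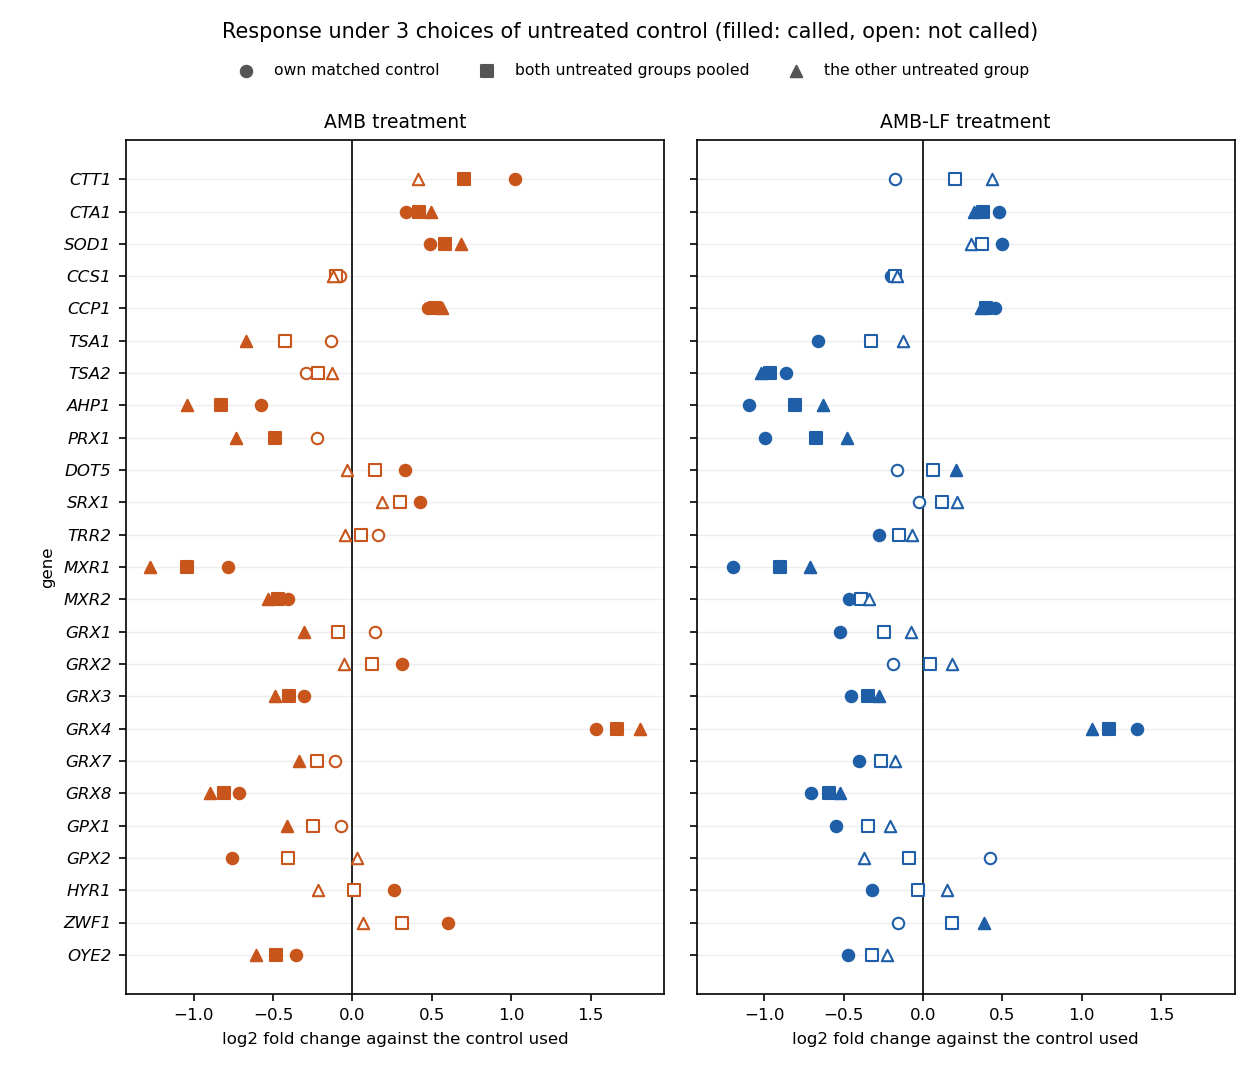
Log2 fold change (x axis) of the 25 genes called in at least 1 treatment (y axis), with AMB on the left and AMB-LF on the right, against the matched control (circles), both untreated groups pooled (squares) and the other untreated group (triangles). Filled points were called, and GRX4, MXR1, AHP1, GRX8, GRX3, CTA1 and CCP1 are filled throughout.

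With LF alone none of the 35 genes tested was called, nor any of the 5445 genes tested (0% in each direction), by edgeR's quasi-likelihood test. The LF libraries lay above all controls for 0 genes and below for 0, against 1.73% and 1.23% of all genes. No gene of the 35 had an unadjusted p under 0.05 in that fit, and 8 of all genes did. DESeq2 and edgeR's likelihood ratio test called none of the 35 either. The study ran the LF replicates on different days, and with the replicate number as a block 2 of the 35 and 418 of all 5445 genes had an unadjusted p under 0.05, MXR1 with a log2 fold change of -0.18 and CTT1 with -0.25, whose adjusted p by edgeR were 0.49 and 0.52. With this block, 0 of all genes were called by the quasi-likelihood test, 20 by edgeR's likelihood ratio test and 1 by DESeq2, none of them among the 35. CTT1 differed more between replicates than between treatments, at 22.5, 19.1 and 113 CPM with LF and 22.7, 20.98 and 158 in the control, in the order of replicates 1, 2 and 3. TSA2 (14.9, 16.7 and 32.97 and 14.8, 17.1 and 34.4 CPM), PRX1 (88.9, 90.5 and 148 and 82.7, 89.7 and 159.6) and GPX1 (6.303, 7.0 and 11.9 and 5.37, 6.98 and 15.2) were likewise highest in replicate 3 of both groups. MXR1 was highest in replicate 1 of both, at 64.2, 31.96 and 34.7 CPM with LF and 76.8, 35.98 and 37.5 in the control. GRX4 was at 50.4, 73.8 and 41.5 CPM with LF and 60.3, 64.4 and 40.5 in the control. SRX1 was at 3.04 to 4.33 CPM in the NextSeq libraries and was not tested there. Library kit and platform differ between these libraries and the HiSeq ones, and levels were not compared across them.

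Genes of the same pathways outside the 36 were followed in 4 lists, of which no gene was called with LF alone. Genes named from the lists were called in the treatment given, and values are log2 fold changes. Their counts stand beside the shares of all genes tested that increased and decreased, 18.7% and 18.4% with AMB and 14.1% and 15.1% with AMB-LF. The lists were chosen with earlier results of these data known and hold genes that the study reported as changed. A count above the share is therefore not evidence about a list. Of 20 tested genes of glutathione synthesis, transport and transfer, 7 increased and none decreased with AMB, and 4 increased and 6 decreased with AMB-LF (medians 0.10 and -0.13). The largest increases with AMB were the glutathione transferases GTO3 (log2 fold change 1.12) and GTO1 (0.58), and with AMB-LF the transporter OPT1 (0.79) and the glutathione-degrading ECM38 (0.57) rose while the transferases GTT1 (-0.67) and ECM4 (-0.58) fell. Of 18 genes of NADPH and NADP supply, 5 increased and 3 decreased with AMB and 4 and 5 with AMB-LF (medians -0.02 and -0.04). SOL4 (1.05), of the pentose phosphate pathway, and the mitochondrial NADH kinase POS5 (0.90) rose with AMB, and the transaldolase paralog NQM1 (-1.17) and RKI1 (-0.88) fell. With AMB-LF the malic enzyme MAE1 (1.08) and the isocitrate dehydrogenase IDP1 (0.65) rose, and NQM1 (-1.99) and GND2 (-1.19) fell.

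Of 25 other oxidoreductases and peroxide or nitric oxide defence genes, 15 increased and 5 decreased with AMB, whereas 2 increased and 5 decreased with AMB-LF (medians 0.32 and 0.01). The difference between the responses was called for 14 of these 25, 2 upward and 12 downward (10.1% and 7.46% of all genes), and of the untreated groups the one for AMB-LF was higher in 10 of the 25 and lower in 4 (15.2% and 16.6% of all genes). The cytochrome c isoform CYC7 rose in both treatments (0.86 and 0.76), and the carbonic anhydrase NCE103 with AMB (0.77). YHB1, the flavohaemoglobin that detoxifies nitric oxide, fell with AMB (-0.54) and rose with AMB-LF (0.73). TMA19 fell with AMB (-0.95), and the NADPH-dependent reductases GRE2 (-0.88) and LOT6 (-0.66) with AMB-LF. Of 30 regulators of the oxidative and general stress response, 8 increased and 2 decreased with AMB and 4 and 4 with AMB-LF (medians 0.13 and -0.06). CIN5, a relative of Yap1, rose in both (1.10 and 0.96), XBP1 with AMB (0.74) and MSN4 with AMB-LF (0.65). ROX1 (-0.34) and YAP3 (-0.29) fell with AMB, and CAD1 (-0.60) and YAP3 (-0.28) with AMB-LF.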

How the data were processed

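The authors deposited raw read counts per gene, made with HTSeq on the R64 genome (version 0.5.3p9 in the submitters' processing notes, and a later one for the LF libraries in the study's methods). Reads were counted over coding sequence regardless of strand, and those in overlapping coding sequences were left out, so reads of the 2 strands cannot be told apart. The deposited tables of group average log2 CPM and of edgeR fold changes, p-values and false discovery rates were not used. Of 6692 genes, 6008 matched the annotation, and the other 684 held 0.300% of the counts. Genes reaching 7 CPM in 6 or more of the HiSeq libraries, or in 3 or more of the NextSeq ones, were kept (5456 and 5445 genes). TMM factors and edgeR's quasi-likelihood test (edgeR 4.0.16, R 4.3.3) were used, with lane as a term for the HiSeq libraries and Benjamini-Hochberg adjustment over all genes tested. CPM values per library use these factors. DESeq2 1.42.0 was an alternative. The fits were also run on simulated counts with known changes, and no result of that run is used here. The genes named with full values were those called in both treatments, those with a called difference between the responses, the 5 largest called changes in each direction per treatment whose groups did not overlap, and related pairs that differed. Other genes are given in part. The members and lists were chosen with earlier results of these data known. Same-numbered LF and control libraries deviated together (r = 0.88, 0.77 and 0.94), so the numbers pair these samples. Sequences are from RefSeq's R64 assembly, read at the coordinates given. Precision is limited by 3 replicates a group and by the depths given above.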

Additional observations from a re-analysis of the deposited data

Results flagged for a closer look

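The response to AMB-LF differed from the response to AMB, by a test of the difference itself, for 9 of the 35 genes tested. On the log2 scale, AMB-LF minus AMB, the difference was 1.18 for GPX2, -1.20 for CTT1, -0.78 for PRX1, -0.76 for ZWF1, -0.66 for GRX1, -0.58 for HYR1, -0.50 for GRX2, -0.49 for DOT5 and -0.44 for TRR2. The treated groups of these genes differed directly by -0.59 to 0.39, with none called, and 7 of the 9 differed between the untreated groups. The part of the untreated groups in these differences was not tested apart from the exchange of groups given below.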

How the results depend on the processing

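The counts of called genes moved by over 1.5 times under the settings that follow, and the cause was not tested. In the lane 1 libraries alone, which have 1 library in 2 of the groups (assumed to vary like the others), 2 genes increased and 3 decreased with AMB, 1 and 5 with AMB-LF, the difference between the responses was called for 0 and 0 (4 and 0 of all genes), AMB-LF against AMB for 0, and 1 gene was higher in the untreated group for AMB-LF than in that for AMB. With the untreated groups pooled, 5 genes increased with AMB (701 of all genes, against 1019) and 6 decreased with AMB-LF (411, against 825). With them exchanged, 5 increased and 11 decreased with AMB (918 and 1010 of all genes) and 6 decreased with AMB-LF (872). The difference was then called for 2 upward and 2 downward (375 and 716 of all genes). With just the 6 libraries of each comparison, 1 increased and 5 decreased with AMB-LF (320 and 216 of all genes, against 770 and 825). The controls for AMB-LF are all on lane 1, so with the lane term this fit sets AMB-LF replicate 1 alone against them. It called the same genes as the lane 1 libraries alone and is no separate check. In such fits 2 decreased in AMB-LF against AMB (36 of all genes). None (0) were higher in the control for AMB-LF (65 of all genes), where control for AMB replicate 1 alone is compared. Scaling by library size alone left 0 decreased in AMB-LF against AMB (10 of all genes, against 17) and 15 higher in the control for AMB-LF (1499, against 828). It moved the median of all genes to -0.10 with AMB-LF and to 0.14 between the untreated groups. Without a lane term the control for AMB-LF was lower in 2 genes (1065 of all genes, against 906).

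Same-numbered HiSeq libraries share only a number (r from -0.50 to 0.04). With that number as a replicate block the difference was called for 0 and 0 genes (1 and 5 of all genes, against 550 and 407). AMB-LF against AMB was called for 0 (0 and 2 of all genes, against 1 and 17). The control for AMB-LF was lower in 2 (677 of all genes, against 906). For LF, the replicate block changed no call among the 35 genes tested (0 called).

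Leaving out 1 library gave 4 to 10 increased and 3 to 7 decreased genes with AMB, 1 to 5 and 6 to 15 with AMB-LF, 0 to 2 and 0 to 11 for the difference, 0 to 1 decreased in AMB-LF against AMB, and 3 to 14 higher and 0 to 3 lower in the control for AMB-LF.

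Exchanging the untreated groups turned the direction of some log2 fold changes that were called before or after the exchange. With AMB these were DOT5 (-0.034), GRX1 (-0.30), GRX2 (-0.055), GPX2 (0.031) and HYR1 (-0.22), and with AMB-LF DOT5 (0.21), HYR1 (0.15) and ZWF1 (0.38). For the difference they were CTT1 (0.022), PRX1 (0.26), DOT5 (0.24), GRX1 (0.23), GRX2 (0.24), GPX2 (-0.40), HYR1 (0.37), MXR1 (0.56) and ZWF1 (0.32). Genes called in neither fit turned too, among them GRX6 with AMB (0.21 to -0.23) and CTT1, GRX2, GPX2 and GRX6 with AMB-LF. No other setting reversed a sign among called values. With 3 replicates a group, the smallest p of an exact two-sided permutation test is 0.10, so the calls rest on the spread pooled over genes.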
